A study of Rattus norvegicus with 10 samples.

Results

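A set of 9 genes of iron handling was followed in the area at risk (AAR), the part of the rat ventricle downstream of a ligated left coronary artery. The genes, of 31580 in the tissue count table, were Scara5, Tfrc, Slc11a2, Fth1, Slc40a1, Cp, Heph, Hamp and Hfe2. They were taken by symbol, and the group was selected on the tissue values of Scara5 and Hfe2, which were higher with BT2 at 24 h. That contrast is therefore given as a description, with no test of the members, and no numeric threshold belonged to the choice. The study set BT2, a compound named only by this code, against vehicle in rats with myocardial ischaemia and reperfusion injury (M/IR). All groups carried the injury, and no uninjured heart was analysed here. Hours run from ligation in the titles of the samples but from M/IR injury in the series' design, so the zero point of the times is not settled. Tissue RNA with poly(A) tails gave 8 libraries, 2 in each of the groups vehicle at 4 h, BT2 at 4 h, vehicle at 24 h and BT2 at 24 h, and nuclei gave 1 vehicle and 1 BT2 (100 mg/kg) library at 24 h. The sources used here do not give the dose behind the tissue libraries, the strain, sex and age of the rats or whether replicates were separate animals. P-values thus reflect the spread among these libraries, which may be technical.

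Cells take up iron from transferrin through the transferrin receptor, or from ferritin through scavenger receptors, and move it out of endosomes with a divalent metal transporter. Iron that is not used is stored in ferritin shells or leaves the cell through ferroportin, helped by copper ferroxidases. The peptide hormone hepcidin closes ferroportin, and its gene is switched on through bone morphogenetic protein (BMP) receptors with hemojuvelin as co-receptor. The heart makes hepcidin of its own, and iron handling in cardiomyocytes is studied for its part in reperfusion injury.

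Tissue libraries held 10397310 to 24480984 counts, and replicates correlated across genes at r = 0.981 to 0.99. The summed level of 10 cardiomyocyte markers ran from 24730 to 93650 CPM (counts scaled to a common library size with TMM factors), so the libraries carried heart muscle RNA. From nuclei there were 11540 barcodes in vehicle and 10497 with BT2, and 37 barcode sequences occurred in both. In tissue RNA, fewer cells of a type and less RNA per cell cannot be told apart.

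Scara5 was the member that rose with BT2 at the earlier time. It encodes a scavenger receptor that takes up ferritin. At 4 h it stood at 10.3 and 7.71 CPM in the vehicle libraries and at 30.45 and 36.7 CPM with BT2. Both BT2 libraries lay above both vehicle libraries. The log2 fold change was 1.91 ± 0.35 (SE; 3.77-fold; edgeR quasi-likelihood test, Benjamini-Hochberg adjusted p = 0.0163, n = 2 libraries per group). It was the only 1 of the 9 members, all of which passed the filter on low counts, that the test called at 4 h, where 16.4% of all 15216 genes tested were called with 6.67% called higher and 9.73% lower. Of the 9 members, 3 had an unadjusted p under 0.05. The share of all genes under that threshold was not counted, so nothing is read from this number. Without vehicle replicate 2 the adjusted p of Scara5 was 0.105, without BT2 replicate 2 it was 0.0855 and with no filter on low counts 0.0598. Over all its alternatives, the adjusted p ran from 4.19e-07 (DESeq2) to 0.105. Of the fibroblast markers, 2 of 9 tested rose at 4 h, and their summed level was 5738 and 4966 CPM in vehicle and 5525 and 5372 CPM with BT2, which overlap.

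At 24 h Scara5 stood at 8.02 and 3.44 CPM in vehicle and at 42.1 and 43.8 CPM with BT2. The difference, which chose the gene, was 2.89 ± 0.34 on the log2 scale, or 7.42-fold, and without vehicle replicate 1 it was 3.64. The 24 h effect exceeded the 4 h effect by 0.98 ± 0.47, as a description; the test of that difference called 7.14% of all genes. From 4 h to 24 h the log2 difference in Scara5 level was -0.63 ± 0.36 in vehicle, with overlapping libraries, and 0.35 ± 0.31 under BT2. Fibroblast markers moved at 24 h as well: 4 of 9 tested rose, and their summed level was 4074 and 3643 CPM in vehicle and 6771 and 6041 CPM with BT2. Their part in the Scara5 difference was not tested in tissue, and the nuclei give levels within fibroblasts.

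**Figure D1:**
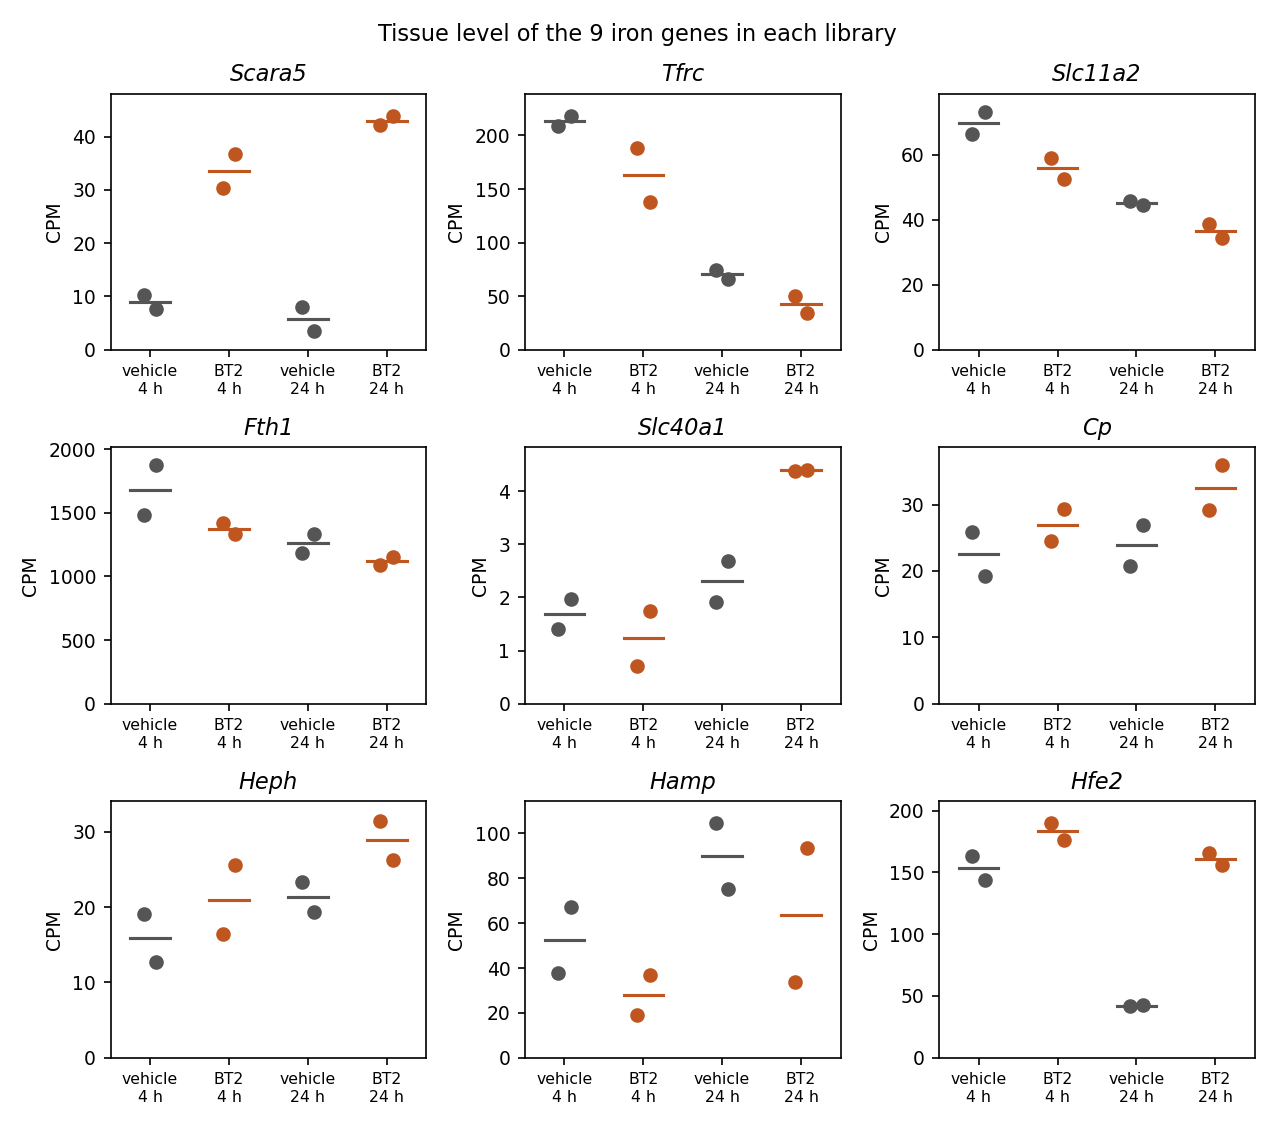
Level of each of the 9 genes in every tissue library, in CPM on a linear axis from 0; each point is 1 library, each short line the mean of 2, grey for vehicle and orange for BT2. Scara5 is high in all 4 BT2 libraries, Hfe2 is low only in the 2 vehicle libraries at 24 h (41.6 and 42.3 CPM), and the Hamp libraries of a group lie far apart.

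In nuclei, Scara5 was concentrated in fibroblasts, and its level inside the cluster that held most of it was near that of vehicle. With 1 library per group there is no test, and 95% intervals cover counting error only. Over all kept nuclei (11372 and 10324) it had 457 UMIs in vehicle and 872 with BT2, or 10.1 and 26.9 CPM, a ratio of 2.66 (2.37 to 2.99). This is past the size used for nuclei, a CPM ratio of at least 2 or at most 0.5 with 20 UMIs in the higher library, which 7.04% of 16973 genes with that many UMIs reached, 3.04% higher and 4.0% lower with BT2. Of 8 members with that many UMIs, Scara5 was past it upward and Hamp downward. Fibroblast-like nuclei had 54.2 CPM in vehicle and 78.6 CPM with BT2, a ratio of 1.45 (1.27 to 1.66).

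Fibroblast-like nuclei fell into a pair of clusters, formed without the 9 members among the genes used. The cluster led by Aox3, Scara5 and Opcml had 217 CPM (192 to 245) in its 412 vehicle nuclei and 245 CPM (227 to 264) in its 1360 BT2 nuclei. The cluster led by Ltbp2 and Postn had 12.5 CPM in 981 vehicle nuclei and 11.4 CPM in 1381 BT2 nuclei. The first cluster held 57.3% of all Scara5 UMIs in vehicle and 78.3% with BT2, and unnamed clusters held 23.0% and 4.01%. The intervals of the 2 libraries overlap within each fibroblast cluster, whereas those of the whole fibroblast class do not. In the remaining named classes Scara5 stayed at or under 5.03 CPM in vehicle and, with BT2, reached 25.7 CPM in lymphocyte-like nuclei, on 13 UMIs. In cardiomyocyte-like nuclei it had 11 and 24 UMIs (1.74 and 4.81 CPM), also past the size, and in macrophage-like nuclei 1.32 and 2.63 CPM. With the members kept among the clustering genes, the cardiomyocyte-like nuclei had 22 and 24 UMIs, a ratio of 1.7 that is not past the size. Such low levels were not told apart from free RNA.

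**Figure D2:**
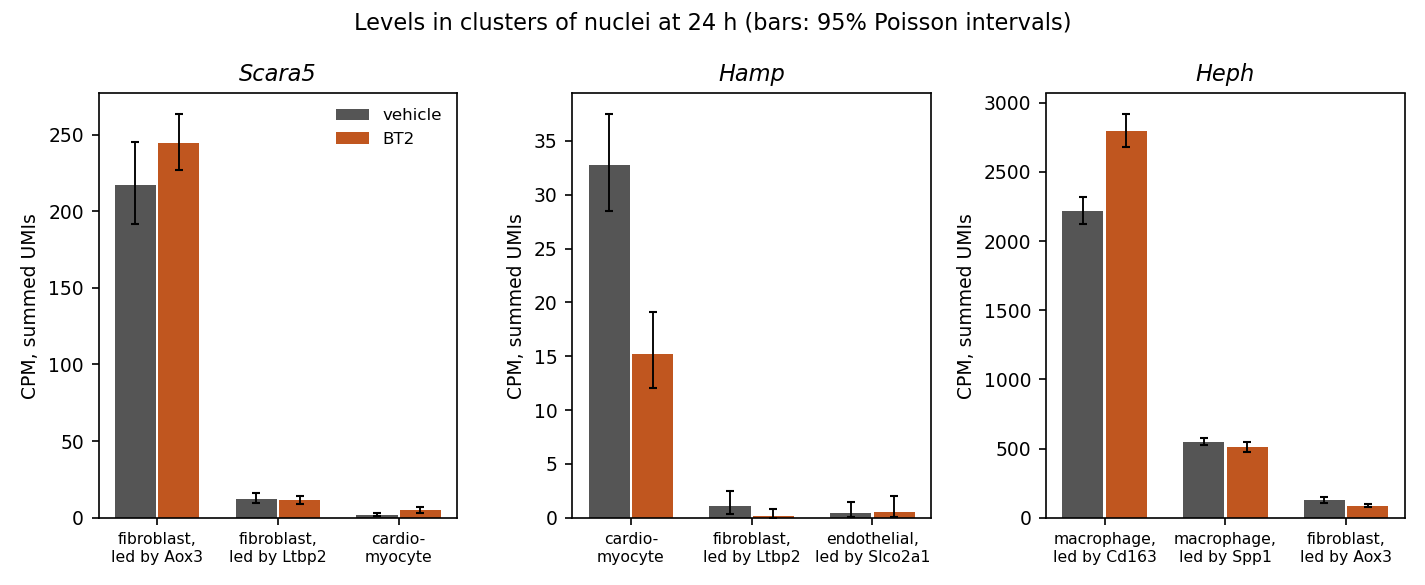
Level of Scara5, Hamp and Heph in 3 clusters of nuclei each at 24 h, in CPM from summed UMIs on linear axes from 0; grey bars are the vehicle library, orange bars the BT2 library and error bars 95% Poisson intervals for counting error. Scara5 differs far more between the fibroblast clusters than between libraries, Hamp stands at 32.75 CPM in vehicle and 15.2 CPM with BT2 in cardiomyocytes, and Heph is highest in the macrophage cluster led by Cd163.

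Tfrc encodes the transferrin receptor, the main entry for transferrin iron. Its message is known to be held stable by iron regulatory proteins when iron is scarce, and its gene is a known target of hypoxia-inducible factors through an ACGTG core. The stretch of the rat promoter with that core is shown because Tfrc had the largest change with time of the 7 members tested. It lies at chr11:81690319-81690379 on the minus strand (GRCr8, RefSeq), 61 to 1 bases before the start, with the core in capitals.
Tfrc: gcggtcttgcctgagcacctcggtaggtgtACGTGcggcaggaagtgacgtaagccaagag
The core was searched on both strands over 250 bases before each start, and 16.6% of 33469 such windows hold it. A match of letters is a description and shows no binding.

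Tfrc fell with time in both treatments. The libraries read 209 and 219 CPM in vehicle at 4 h and 74.8 and 66.4 CPM at 24 h, a log2 change of -1.60 ± 0.20 (edgeR adjusted p = 0.000575). Under BT2 they read 188 and 138 CPM at 4 h and 50.3 and 34.4 CPM at 24 h, a change of -1.95 ± 0.21 (edgeR adjusted p = 0.00224). No library at 24 h reached any library at 4 h. Between treatments, both BT2 libraries lay under both vehicle libraries at each time. At 4 h the log2 difference was -0.39 ± 0.20 (edgeR adjusted p = 0.211), and at 24 h it was -0.74 ± 0.20 as a description. Cardiomyocyte markers fell with time too, 10 of 10 in vehicle and 5 of 10 under BT2, and their part in the Tfrc change was not tested. Over all kept nuclei at 24 h Tfrc had 25.13 CPM in vehicle and 28.73 CPM with BT2. The ratio was 1.143 (1.047 to 1.248), so the level was higher with BT2, unlike in tissue. The cause of the unlike directions was not tested. Tfrc was spread widely over the classes of nuclei. In vehicle it was highest in macrophage-like (43.2 and 49.1 CPM) and cardiomyocyte-like nuclei (37.8 and 38.9 CPM). In neutrophil-like nuclei it was past the size, with 26 UMIs in vehicle and 22 with BT2 (18.0 and 39.8 CPM, ratio 2.21, 1.20 to 4.06), where 1.97% of 7859 genes were past it upward. At a clustering resolution of 1.0 this class had 24 and 18 UMIs and a ratio of 1.87, which is not past the size.

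Slc11a2, the divalent metal transporter that carries iron out of endosomes, followed the same order of groups. It read 66.5 and 73.2 CPM in vehicle and 59.1 and 52.7 CPM with BT2 at 4 h, then 45.9 and 44.6 CPM in vehicle and 38.6 and 34.5 CPM with BT2 at 24 h. Each group lay wholly under the one named before it. It fell with time by 0.63 ± 0.11 in vehicle (edgeR adjusted p = 0.00215) and by 0.61 ± 0.11 under BT2 (0.0086) on the log2 scale. Without BT2 replicate 1 at 4 h the latter adjusted p was 0.05, at the threshold and not under it, and without BT2 replicate 2 at 24 h it was 0.0589. The difference between treatments at 4 h was -0.32 ± 0.11 and was not called (edgeR adjusted p = 0.0771). At 24 h it was -0.31 ± 0.11. Its nuclear levels in vehicle ran from 23.6 CPM in endothelial-like to 33.4 CPM in fibroblast-like nuclei over the 4 classes with at least 100 UMIs.

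Fth1 encodes the heavy chain of ferritin, which oxidises iron for storage. It read 1485 and 1877 CPM in vehicle and 1420 and 1330 CPM with BT2 at 4 h, and 1187 and 1330 CPM in vehicle and 1092 and 1155 CPM with BT2 at 24 h. The fall with time in vehicle, -0.42 ± 0.14, passed the test (edgeR adjusted p = 0.0398), but not without vehicle replicate 2 at 4 h (0.207), vehicle replicate 1 at 24 h (0.223) or vehicle replicate 2 at 24 h (0.0899). The change under BT2 was -0.29 ± 0.14 (edgeR adjusted p = 0.163). BT2 and vehicle differed by -0.29 ± 0.14 at 4 h (edgeR adjusted p = 0.192) and by -0.16 ± 0.14 at 24 h. The RefSeq gene table used here, which need not match the annotation behind the counts, names 5 Fth1 pseudogenes. How reads shared with such copies were counted is not given, so these levels are uncertain. Fth1 was highest in neutrophil-like nuclei (192 and 195 CPM) and next in macrophage-like nuclei (108 and 154 CPM, ratio 1.43, 1.24 to 1.64).

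Ferritin's light chain gene Ftl1, from the wider list of iron storage genes and not a member, had a course unlike that of Fth1. It read 78.9 and 100.4 CPM in vehicle at 4 h and 194 and 235 CPM at 24 h, and it rose with time (1.25 ± 0.17, edgeR adjusted p = 0.000723). It fell with BT2 at 24 h, to 93.5 and 123 CPM (-0.99 ± 0.17, edgeR adjusted p = 0.00323). Its 4 h call (-0.61 ± 0.17, edgeR adjusted p = 0.0445) was lost without vehicle replicate 2 (0.234), BT2 replicate 1 (0.125) or BT2 replicate 2 (0.181). Macrophage markers moved the same way at 24 h, 5 of 10 falling and 1 rising with BT2, from 3111 and 3782 to 1229 and 1400 summed CPM, and their part in the Ftl1 difference was not tested. Pseudogenes were looked up for Fth1 only, so whether reads shared with copies affect the Ftl1 levels is not known.

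**Figure D3:**
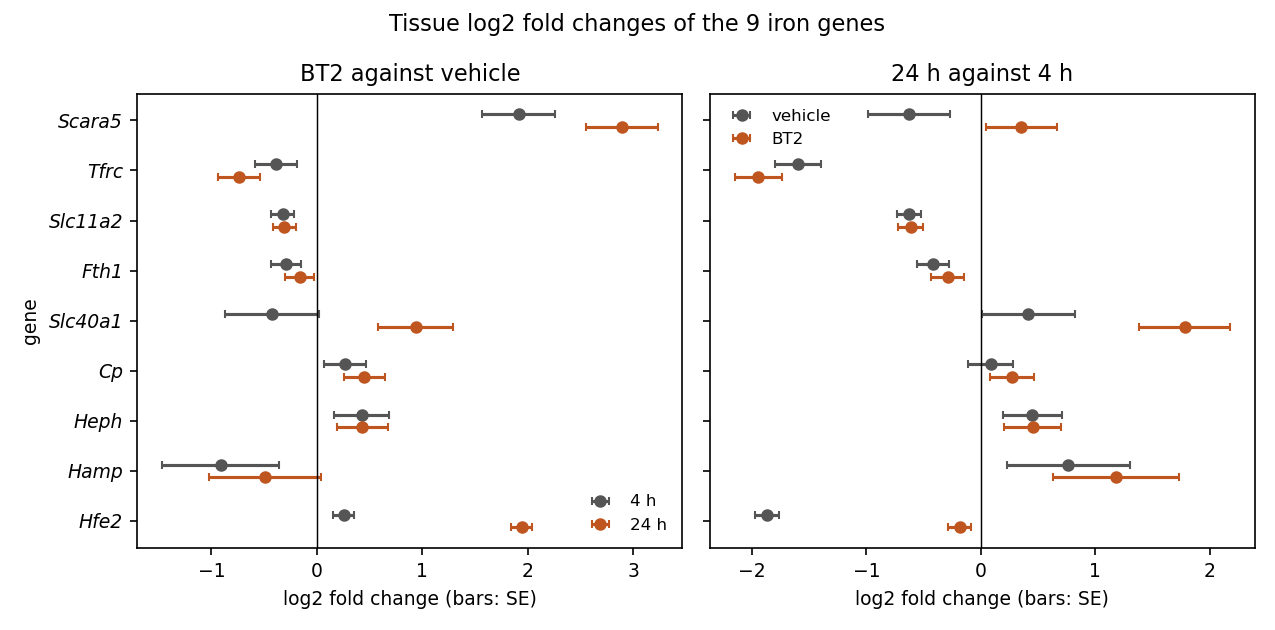
Tissue log2 fold changes of the 9 genes from the edgeR fit to 8 libraries, for BT2 against vehicle at 4 h and 24 h (left) and for 24 h against 4 h in vehicle and under BT2 (right); points are estimates and bars 1 SE. Scara5 lies furthest to the right for BT2 at both times, Hfe2 only at 24 h, and Tfrc, Slc11a2 and Fth1 lie left of 0 in both time courses.

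Slc40a1 encodes ferroportin, the iron exporter. It was the scarcest member in tissue, with 9 to 108 counts per library. Its libraries read 1.41 and 1.96 CPM in vehicle and 0.714 and 1.75 CPM with BT2 at 4 h, where they overlapped (log2 difference -0.43 ± 0.44, edgeR adjusted p = 0.544). At 24 h they read 1.91 and 2.69 CPM in vehicle and 4.38 and 4.40 CPM with BT2, a difference of 0.94 ± 0.36. Under BT2 it rose with time by 1.78 ± 0.40 on the log2 scale (edgeR adjusted p = 0.0176). That call was lost without BT2 replicate 1 at 4 h (0.0736), BT2 replicate 1 at 24 h (0.0581) or BT2 replicate 2 at 24 h (0.0753). In vehicle the change was 0.41 ± 0.41 (edgeR adjusted p = 0.429). The nuclear matrices held 1 Slc40a1 UMI in vehicle and 0 with BT2, which by a floor of 3 counts allows up to 0.0927 CPM with BT2, and macrophage-like nuclei held 0 in both libraries. These nuclear levels lie far under the tissue levels at 24 h, and the cause was not tested. In the RefSeq gene table the Slc40a1 locus overlaps Asnsd1, and the strand setting of the counting is not given.

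Cp and Heph encode ceruloplasmin and hephaestin, ferroxidases that load exported iron onto transferrin. Cp read 25.9 and 19.3 CPM in vehicle and 24.6 and 29.35 CPM with BT2 at 4 h, and 20.8 and 26.9 CPM against 29.2 and 35.9 CPM at 24 h. Heph read 19.0 and 12.7 CPM against 16.4 and 25.6 CPM at 4 h, and 23.4 and 19.4 CPM against 31.5 and 26.3 CPM at 24 h. Both genes overlapped between treatments at 4 h (log2 differences 0.27 ± 0.20 and 0.43 ± 0.26, edgeR adjusted p = 0.39 and 0.295). At 24 h the BT2 libraries lay above vehicle, by 0.45 ± 0.19 for Cp and 0.43 ± 0.24 for Heph. Neither passed the test with time in vehicle (edgeR adjusted p = 0.748 for Cp and 0.187 for Heph) or under BT2 (0.335 and 0.215). Over all kept nuclei at 24 h both genes were lower with BT2, unlike in tissue. The ratio to vehicle was 0.732 (0.683 to 0.785) for Cp and 0.769 (0.745 to 0.793) for Heph. The cause of the unlike directions was not tested.

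Levels of these ferroxidases differed between the named classes of nuclei. Unnamed clusters held 43.4% of Heph UMIs in vehicle and 25.8% with BT2, and 37.9% and 18.8% of Cp UMIs. Heph was highest in macrophage-like nuclei, and within them in the cluster led by Cd163, Stab1 and Lyve1, at 2219 CPM (2122 to 2319) in 351 vehicle nuclei and 2796 CPM (2676 to 2920) in 362 BT2 nuclei. The macrophage cluster led by Spp1 had 549 CPM in 1604 vehicle nuclei and 510 CPM in 859 BT2 nuclei. The Heph locus overlaps Vsig4, itself a macrophage gene, which had 11.2 and 53.6 CPM in the Cd163-led cluster. Over all kept nuclei Heph had a ratio of 0.769 (0.745 to 0.793), below 1, while the ratio inside macrophage-like nuclei was 1.42 (1.35 to 1.49). The 2 macrophage clusters made up different shares of that class in the 2 libraries, 351 of 1955 vehicle nuclei and 362 of 1221 BT2 nuclei being in the Cd163-led one, so the class ratio also carries this mix. Among the named classes Cp was highest in lymphatic endothelial-like nuclei, at 143 CPM (109 to 184) in vehicle and 209 CPM (160 to 268) with BT2. Macrophage-like nuclei came next, at 135 and 114 CPM, and these neighbours overlap in vehicle but not with BT2. Within the endothelial class, the cluster led by Zmat4 had 143.5 CPM of Cp on 23 UMIs in vehicle and 69.0 CPM on 25 UMIs with BT2. The Cp locus overlaps Hps3, which had 67.7 and 37.0 CPM in the lymphatic class and 178 and 175 CPM in the Spp1-led macrophage cluster. Hps3 was highest in the unnamed cluster led by P2ry10 (300 and 253 CPM), where Cp had 22.2 and 33.9 CPM. Whether reads of an overlapping gene count for Cp or Heph was not tested, so the macrophage levels of both are uncertain. Over all kept nuclei Heph had 246.5 CPM in vehicle and 189.6 CPM with BT2, far above its tissue levels at 24 h. The cause of that gap was not tested. In cardiomyocyte-like nuclei the ratio of Cp was 0.65 and that of Heph 0.725, and both depended on the clustering: 0.48 and 0.391 where the members were kept among the clustering genes.

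**Figure D4:**
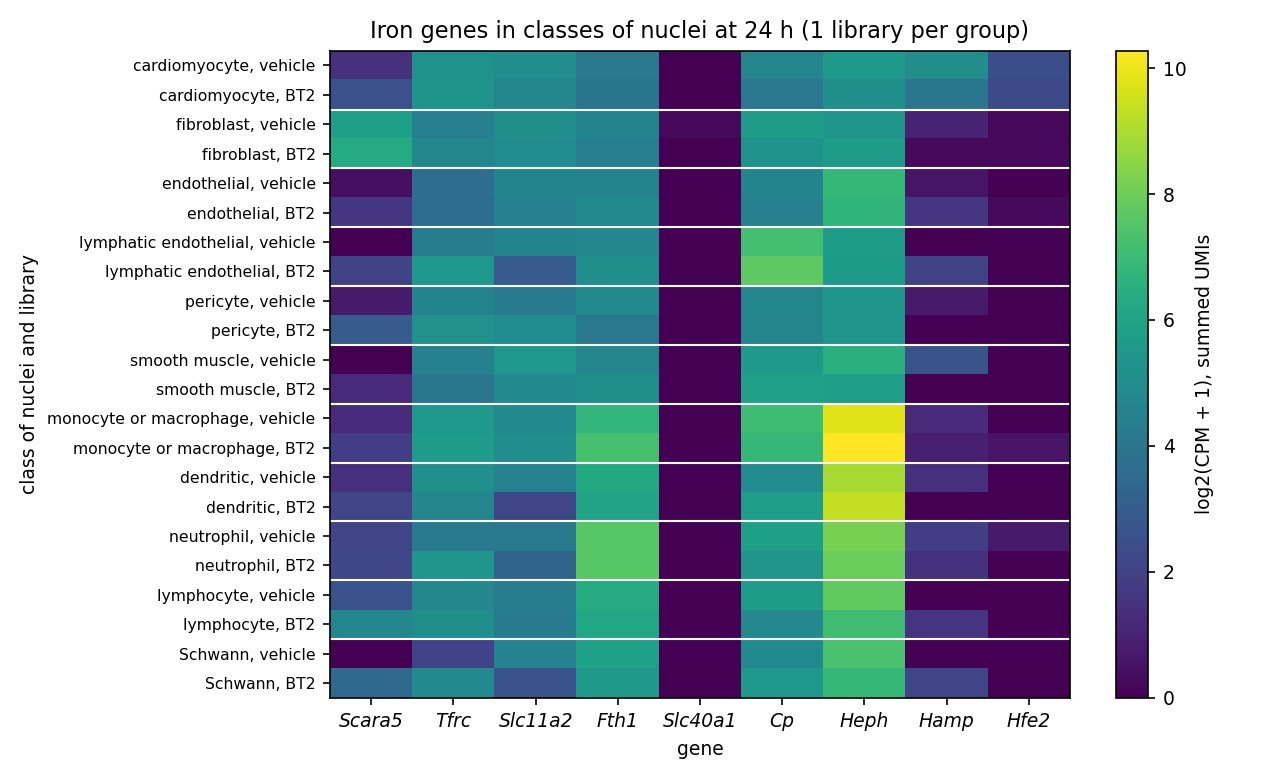
Level of the 9 genes in 11 named classes of nuclei at 24 h, each class in the vehicle and the BT2 library (1 library per group), as log2(CPM + 1) of summed UMIs on the colour scale. Scara5 is bright in fibroblasts, Heph in macrophages and dendritic cells, Hamp and Hfe2 in cardiomyocytes, and Slc40a1 is dark throughout.

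Hamp encodes hepcidin, the hormone that closes ferroportin. The promoter stretch with its BMP response element and STAT element is shown because hepcidin is the output of the pathway in which Hfe2 acts. It lies at chr1:95300350-95300430 on the minus strand (GRCr8, RefSeq), 159 to 79 bases before the start. The capitals mark GGCGCC and TTCTTGGAA.
Hamp: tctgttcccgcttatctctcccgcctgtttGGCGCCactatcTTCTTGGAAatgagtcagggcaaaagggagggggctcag
Searched on both strands, GGCGCC is in 8.69% of the 33469 windows, the Tfrc window included, and TTCTTGGAA in 0.469%.

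Hamp varied widely between replicates in tissue. At 4 h it read 37.9 and 67.3 CPM in vehicle and 19.0 and 36.8 CPM with BT2, so the groups met without overlap (log2 difference -0.91 ± 0.56, edgeR adjusted p = 0.303). At 24 h it read 104.5 and 75.1 CPM in vehicle and 33.95 and 93.7 CPM with BT2, and the groups overlapped (-0.49 ± 0.53). Without BT2 replicate 1 at 24 h that difference was 0.05 and without BT2 replicate 2 it was -1.40. The change with time was 0.76 ± 0.54 in vehicle and 1.18 ± 0.55 under BT2 (edgeR adjusted p = 0.284 and 0.161). In nuclei Hamp was mainly found in cardiomyocytes, with 207 UMIs in vehicle and 76 with BT2. There the level was 32.75 CPM in vehicle and 15.2 CPM with BT2, a ratio of 0.465 (0.353 to 0.608). Of 11706 genes in that class, 6.55% were past the size, 3.68% upward and 2.87% downward. With the members kept among the clustering genes the Hamp ratio was 0.536, which is not past the size. Unnamed clusters held a further 54 and 3 UMIs, and no other named class held more than 10. The nuclear value rests on 1 library per group and the tissue libraries of 1 group differed as much, so the difference has no replicate check.

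Hfe2, listed as Hjv in the RefSeq gene table, encodes hemojuvelin, the BMP co-receptor that is typical of striated muscle and liver. The promoter stretch below holds a match to the MEF2 consensus, the site of a family of muscle transcription factors, and is shown because Hfe2 is one of the pair that chose the genes. It lies at chr2:186754639-186754718 on the plus strand (GRCr8, RefSeq), 162 to 83 bases before the start. The capitals mark the match, which 2.96% of the windows hold on either strand.
Hfe2: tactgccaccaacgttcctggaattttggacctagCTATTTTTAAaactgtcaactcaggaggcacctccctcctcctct

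Hfe2 was low in one group alone. It read 163 and 144 CPM in vehicle and 190 and 176 CPM with BT2 at 4 h, then 41.6 and 42.3 CPM in vehicle and 166 and 156 CPM with BT2 at 24 h. The 24 h difference, which chose the gene, was 1.94 ± 0.10 on the log2 scale, or 3.84-fold. At 4 h the difference was 0.26 ± 0.10 and was not called (edgeR adjusted p = 0.114), although the libraries did not overlap. From 4 h to 24 h the level differed by -1.87 ± 0.10 in vehicle and by -0.18 ± 0.10 under BT2, as a description. Cardiomyocyte markers were at 24730 and 25030 summed CPM in vehicle and 54270 and 41970 with BT2 at 24 h, where 9 of 10 rose, and 1 of 10 rose at 4 h. Their part in the Hfe2 difference was not tested.

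In nuclei Hfe2 was sparse and was found mainly in cardiomyocytes, with 29 UMIs in 866 vehicle nuclei and 20 in 911 BT2 nuclei. Its level there was 4.59 CPM (3.07 to 6.59) and 4.01 CPM (2.45 to 6.19), a ratio of 0.874 (0.469 to 1.60). Over all kept nuclei Hfe2 had 35 UMIs in vehicle and 28 with BT2, a ratio of 1.115 (0.654 to 1.89). The upper bounds of both ratios lie under the 3.84-fold difference of the tissue. No other named class held more than 2 UMIs in a library. The nuclear libraries are other samples than the tissue libraries and hold nuclear RNA, so the values stand side by side without a test.

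Counted over the 9 members, the libraries did not overlap between treatments for 2 higher and 4 lower members at 4 h, against 29.2% and 30.1% of all genes. At 24 h this held for 5 higher and 3 lower members, against 37.7% and 39.5% of all genes, from which nothing is read since this contrast chose the group. Of the 7 members tested with time, 3 fell in vehicle, where 47.1% of all genes were called (23.3% rose and 23.8% fell). Under BT2 2 fell and 1 rose, where 23.3% were called (11.7% rose and 11.6% fell).

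Over the 8 tissue libraries, the genes whose log2 CPM was most like that of Scara5 among 10400 compared were C1qtnf1 (r = 0.986), Rabgap1l (0.986) and Rarres2 (0.985). Most like Hfe2 were Acaa2 (r = 0.996), an enzyme of fatty acid oxidation, Lrrc39 (0.995), a protein of the sarcomere's M-band, and Akr1e2 (0.994). Across 22 levels of 11 nuclear classes in both libraries, Dcn, a fibroblast marker, was most like Scara5 (r = 0.926), followed by Gria4 (0.918) and Aff2 (0.896). Ankrd1, a cardiomyocyte stress gene (r = 0.93), Yipf7 (0.93) and Hspb7 (0.926) were most like Hfe2. Among the members, Tfrc and Slc11a2 were the most alike in tissue (r = 0.98) and Fth1 and Heph the most opposed (-0.925). These are descriptions over libraries that share group, depth and cell make-up.

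Among the other genes of iron handling, a smaller share was called than among all genes in both treatment contrasts, a difference that was not tested. Of 75 further genes in 9 lists, 68 were tested. At 4 h 4 rose and 4 fell with BT2 (11.8%, against 16.4% of all genes), and the median log2 difference was 0.03, against 0.00335 over all genes. At 24 h 13 rose and 8 fell (30.9%, against 39.5% of all genes; 18.9% of genes rose and 20.7% fell), with a median of 0.09 against -0.00627. In vehicle 14 rose and 17 fell with time (45.6%, against 47.1% of all genes). Under BT2 9 rose and 10 fell with time (27.9%, a larger share than the 23.3% of all genes).

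In the hepcidin axis list, 2 of 16 tested genes rose and 1 fell at 4 h (18.8% called, against 16.4% of all genes). At 24 h 3 rose and 2 fell (31.2%, against 39.5% of all genes). Bmp2, a BMP ligand, read 15.1 and 17.3 CPM in vehicle and 6.50 and 4.80 CPM with BT2 at 4 h, and 15.7 and 16.9 CPM against 5.51 and 6.24 CPM at 24 h. It fell at both times, with log2 changes of -1.54 ± 0.19 and -1.47 ± 0.18 (edgeR adjusted p = 0.00919 and 0.00108). Bmp6, the ligand best known for inducing hepcidin in the liver, rose at 24 h by 0.71 ± 0.15 (edgeR adjusted p = 0.00828), a call lost without vehicle replicate 1 (0.0651) or BT2 replicate 2 (0.0501). Atoh8, a transcription factor induced by BMP signals, rose at 4 h by 1.04 ± 0.16 (edgeR adjusted p = 0.011), a call lost without vehicle replicate 2 (0.0516) or BT2 replicate 2 (0.0638).

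Of 14 tested genes of mitochondrial iron and iron-sulfur assembly, 5 rose and 1 fell with BT2 at 24 h (42.9%, near the 39.5% of all genes), with a median log2 difference of 0.35. They included Iscu, the scaffold on which clusters are built (0.76 ± 0.13, edgeR adjusted p = 0.00288), and Isca1, a later assembly factor (0.75 ± 0.10, 0.00151). Of 9 heme synthesis genes 3 rose (33.3% called), among them Fech, which inserts iron into heme (0.75 ± 0.10, edgeR adjusted p = 0.00145). In vehicle, 7 of the 14 assembly genes fell with time and none rose, where 23.8% of all genes fell and 47.1% were called. Cardiomyocyte markers rose beside these genes at 24 h, as given for Hfe2, and their part was not tested.

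Among 10 tested uptake genes, 2 rose and 1 fell at 24 h (30% called, against 39.5% of all genes). Slc39a8, a transporter of zinc and iron, read 24.6 and 27.9 CPM in vehicle and 10.4 and 11.0 CPM with BT2 (-1.30 ± 0.22, edgeR adjusted p = 0.00338). Steap4, a ferrireductase, read 77.9 and 53.65 CPM in vehicle and 125.7 and 128.9 CPM with BT2 (0.95 ± 0.18, edgeR adjusted p = 0.0051). Neither export gene tested and none of the 4 heme breakdown genes was called at 24 h. Hmox1, the heme oxygenase, had a difference of -0.82 ± 0.48 there (edgeR adjusted p = 0.212), with 232 and 223.5 CPM in vehicle and 59.5 and 198 CPM with BT2. Without BT2 replicate 2 the difference was -1.94 and passed the test (edgeR adjusted p = 0.00134), and over the libraries left out it ran from -1.94 to -0.21.

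**Figure D5:**
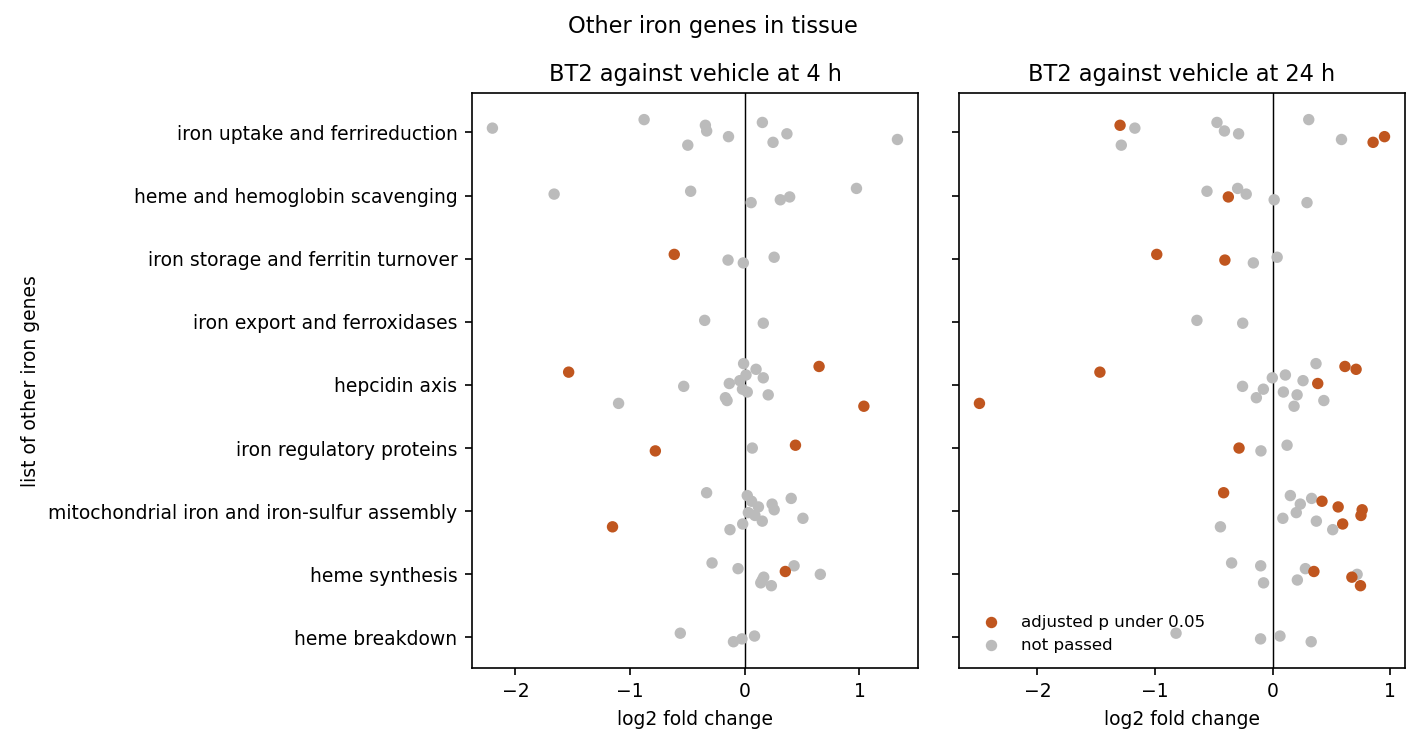
Log2 fold changes with BT2 at 4 h (left) and 24 h (right) of the 68 tested iron genes that are not members, by list; each point is 1 gene, orange where the edgeR adjusted p was under 0.05. At 24 h the mitochondrial list and the heme synthesis list lie mostly right of 0. In them 5 of 14 and 3 of 9 tested genes rose, where 18.9% of all genes rose and 39.5% were called.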

How the data were processed

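Per the submitters' processing notes, reads were handled with Trim Galore, STAR, featureCounts and Cell Ranger (8.0.1 per the file headers) on Rnor_6.0. The strand setting of counting is not given. The values the authors deposited are whole-number counts of reads per gene (tissue) and of UMIs per gene and barcode (nuclei). Tissue counts were fitted with edgeR 4.0.16 (R 4.3.3; filterByExpr, TMM, robust quasi-likelihood, all 8 libraries, 4 residual degrees of freedom), two-sided, with Benjamini-Hochberg adjustment over 15216 genes and a threshold of 0.05. DESeq2 1.42.0 was an alternative.

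The fit was tested on simulated data. A first limit on the share of planted changes recovered was not met at 4 h and was replaced, after the misses were seen to lie mainly in genes with low counts, by checks of sign and of the median estimate. False calls in the simulation were more frequent than the nominal share.

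Barcodes under 500 UMIs or 200 genes or over 5% mitochondrial UMIs were left out. Scrublet marked 1 and 0 doublets, too few to have worked, and none were removed. Clustering (scanpy 1.11.5, 1998 variable genes, 30 components, 15 neighbours, Leiden resolution 0.5) gave 23 clusters, and 7 stayed unnamed (19.7% of vehicle and 14.9% of BT2 nuclei). Names needed a marker score of at least 0.8, a lead of 0.5, 3 detected markers and a median doublet score of at most 0.1. After clusters were seen, the score was lowered from 0.9 to 0.8, which names the Spp1-led macrophage cluster, and the members were left out of the clustering genes. Intervals are exact Poisson or, for ratios, exact binomial. RefSeq promoters (GRCr8) matched 7 of 9 members. Overlapping genes and pseudogenes were taken from a RefSeq gene table, which need not match the annotation used for the counts.

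Members and lists were chosen with earlier results of these data known. The rule named, for each list and contrast, up to 2 called genes with the smallest p and, at 24 h, up to 2 with the largest change at a mean of at least 5 CPM. The text gives a part of these, picked after their values were seen, and Vsig4, Hps3 and Asnsd1 for their overlap with members.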

Additional observations from a re-analysis of the deposited data

Results flagged for a closer look

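For 3 of the 68 tested iron genes that are not members, the effect of BT2 differed between 24 h and 4 h by the interaction test in edgeR. That test called 7.14% of all genes. It was not repeated with single libraries left out or under the other settings. Isca1, an iron-sulfur assembly factor, had a 24 h effect above its 4 h effect by 0.66 ± 0.15 on the log2 scale (edgeR adjusted p = 0.0367). Steap4, a ferrireductase, had a 24 h effect above its 4 h effect by 1.09 ± 0.26 (edgeR adjusted p = 0.043). Lrp1, a receptor for the heme and hemopexin complex, had a difference of -0.77 ± 0.17 (edgeR adjusted p = 0.0382), with 264 and 247 CPM in vehicle and 312 and 358 CPM with BT2 at 4 h and 810 and 853 CPM against 592 and 689 CPM at 24 h. The Lrp1 libraries with BT2 lay above vehicle at 4 h and under vehicle at 24 h.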

How the results depend on the processing

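With 2 libraries per group, which genes are called at 4 h depends on single libraries. Leaving out each library in turn gave 112 to 2796 genes called for BT2 at 4 h, 2982 to 4558 at 24 h, 4629 to 6583 with time in vehicle and 1025 to 2046 under BT2. Members called ranged from 0 to 1 at 4 h and from 1 to 3 with time under BT2. Other iron genes called ranged from 1 to 8 at 4 h, 13 to 20 at 24 h and 5 to 9 with time under BT2. The 24 h log2 difference ranged from 2.42 to 3.64 for Scara5 and from 1.88 to 1.99 for Hfe2. Where an arm kept 1 library, it was assumed to vary like the other groups. With no filter on low counts 0 members were called at 4 h, as against 1, and DESeq2 called 1. With only the libraries of the contrast, 621 genes and 2 other iron genes were called at 4 h, against 2495 and 8. Signs turned, none of them called, without single libraries: the range was -0.12 to 0.31 for Cp with time in vehicle (-0.12 without vehicle replicate 2 at 4 h, -0.11 without vehicle replicate 2 at 24 h), -1.26 to 0.027 for Slc40a1 at 4 h (the highest without BT2 replicate 1), and at 24 h -1.40 to 0.049 for Hamp and -0.72 to 0.019 for Cd163 (both highest without BT2 replicate 1).

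Deviations of same-numbered libraries correlated at -0.0228 to 0.0965, so no large effect shared by sample number was seen. Whether samples were handled in pairs is not given. With the replicate number as a block, Scara5 at 4 h was 1.93 (edgeR adjusted p = 0.0192), 1 member was called at 4 h and 3 in each time course, and 2248, 5824, 7011 and 3129 genes were called for BT2 at 4 h, at 24 h, with time in vehicle and under BT2. In nuclei, 2 alternatives were chosen after seeing the data. Keeping the members among the clustering genes gave the cardiomyocyte values named in the text. A naming score of 0.9 left out the Spp1-led cluster and gave a macrophage Heph ratio of 1.26, as against 1.42. The cardiomyocyte Heph ratio ranged from 0.391 to 0.895 over the clusterings. Nuclear Hfe2 and Slc40a1 rest on few UMIs, which leaves wide counting intervals.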
